A study of Mus musculus with 4 samples.

Results

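Keratins are the intermediate filament proteins of epithelial cells, and the 54 keratin genes described here were the protein-coding genes whose symbol is Krt followed by a digit, out of 18068 protein-coding genes placed in both gene annotations used. The rule uses the name alone and no peak value. Open chromatin was measured by ATAC-Seq, which maps the DNA that the Tn5 transposase can reach, in primary chondrocytes from the rib cartilage of newborn mice. The 4 libraries were Cho replicates 1 and 2 (chondrocytes with no genotype given in the labels), WT, and Deletion. The Deletion library came from mice of genotype E160(delta/delta);E308(delta/delta), which lack both of these elements upstream of Sox9. Per the study methods, the deletions were made with CRISPR/Cas9 on the C57BL/6J strain, the WT and Deletion mice were littermates, and the cells were used within few passages of culture. Each genotype had 1 library, so values are given side by side and no p-value is given anywhere. The deposited files hold accessibility peaks only. They hold no RNA, so whether a keratin was silent could not be measured, and a promoter without a peak is one where no peak passed the authors' threshold.

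A keratin filament is built from pairs of 1 type I and 1 type II protein, and epithelia are told apart by which pair they make. Krt8 with Krt18 is the pair of simple epithelia, Krt5 with Krt14 that of the dividing basal layer of skin, and Krt1 with Krt10 that of the layers above it. Hair keratins fill the hair shaft. Cartilage is mesenchymal, and its textbook filament protein is vimentin. In the mouse, the genes of type I lie side by side on chromosome 11 and those of type II on chromosome 15, with Krt18, a type I gene, at the end of the chromosome 15 row. Of the 54 genes, 28 were of type I and 26 of type II.

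Cho replicate 1, WT and Deletion were read with NCBIM37 (mm9) gene positions, and Cho replicate 2 with GRCm38 positions. Where 4 values stand in a row below, they are those of Cho replicate 1, Cho replicate 2, WT and Deletion, always in this order. The lists held 76242, 148330, 90971 and 169591 intervals, so the number of promoters that can hold a peak moved with the list, and each count below is given per library. Cho replicate 1 stood apart, with the shortest list and 1 constant background for all of its peaks. In such bulk samples, an open site in few cells and a weakly open site in many cells cannot be told apart. The cartilage label was checked on the promoters of 11 chondrocyte marker genes, of which 6, 10, 10 and 10 held a peak (54.5%, 90.9%, 90.9% and 90.9%). All genes stood at 58.6%, 64.8%, 62.1% and 67.8%, and 6 fibroblast marker genes at 66.7%, 83.3%, 83.3% and 100%, so the count does not set chondrocytes apart from fibroblasts, and in Cho replicate 1 it was no higher than for genes at large. Sox9, the transcription factor of cartilage, had fold enrichments of 18.6, 11.8, 9.47 and 8.68. Fold enrichment is the number of reads over the peak's highest point, the summit, divided by the local background, with 1 added to both.

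Sequences from the NCBIM37 genome are shown for some of the WT summits that the account below turns on, because they are open sites of a gene family whose start sites were mostly without peaks. Each is 81 bases centered on the summit and read along the strand of the gene. Capitals mark CG dinucleotides and the letters TGANTCA, which are the binding letters of the AP-1 family of transcription factors. A match describes the letters and is not a measured binding site.
Krt80, upstream of the start site, chr15:101200870-101200950, minus strand: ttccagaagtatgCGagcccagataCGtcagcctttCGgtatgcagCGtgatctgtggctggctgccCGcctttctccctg
Krt7, upstream of the start site, chr15:101241340-101241420, plus strand: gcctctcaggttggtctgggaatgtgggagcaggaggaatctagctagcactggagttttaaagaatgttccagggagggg
Krt86, upstream of the start site, chr15:101303604-101303684, plus strand: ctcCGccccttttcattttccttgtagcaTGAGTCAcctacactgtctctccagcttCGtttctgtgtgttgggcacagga
Krt13, within the gene, chr11:99981846-99981926, minus strand: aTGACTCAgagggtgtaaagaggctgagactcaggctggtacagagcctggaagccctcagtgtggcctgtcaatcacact
Krt5, distal upstream site, chr15:101546430-101546510, minus strand: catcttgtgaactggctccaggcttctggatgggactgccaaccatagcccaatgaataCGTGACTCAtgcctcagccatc
Krt14, distal downstream site, chr11:100060131-100060211, minus strand: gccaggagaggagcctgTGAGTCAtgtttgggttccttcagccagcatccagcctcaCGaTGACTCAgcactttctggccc
Krt10, coding exon, chr11:99247264-99247344, minus strand: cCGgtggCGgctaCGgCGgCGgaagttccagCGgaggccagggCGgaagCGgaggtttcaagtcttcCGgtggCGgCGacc

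Most keratin promoters held no peak. A promoter was counted when a summit lay within 1 kb of the start site, and 4 of 54 keratin promoters were counted in Cho replicate 1 (7.41%, 95% exact binomial interval 2.06 to 17.9%). Cho replicate 2 had 10 (18.5%, 9.25 to 31.4%), WT had 6 (11.1%, 4.19 to 22.6%) and Deletion had 10 (18.5%, 9.25 to 31.4%). Over all 18068 genes, the shares of promoters with a peak were 58.6%, 64.8%, 62.1% and 67.8%. The 18014 other genes stood at 58.8%, 65.0%, 62.2% and 67.9%. In each library the upper end of the keratin interval lay below the share of the other genes. The intervals cover counting error only, and neighboring keratin genes share their stretch of chromosome, so the 54 genes are not independent draws.

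Across libraries, 43 of the 54 keratins (79.6%) had no promoter summit in any library, against 5039 of the other genes (28.0%). Only Krt13, Krt19 and Krt80 had one in all 4 libraries (5.56%), Krt19 through unlike start sites, whereas 9524 of the other genes did (52.9%). Krt7 (also through unlike start sites), Krt16, Krt86 and Krt87 had one in 3 libraries, Krt75 and Krt79 in 2, and Krt8 and Krt222 in 1. The keratins with a peak were not the strongest promoters of their lists. The median fold enrichment of keratin promoters with a peak was 9.08, 8.14, 7.35 and 9.84. The same medians for other promoters with a peak were 12.2, 17.6, 12.7 and 12.4.

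**Figure D1:**
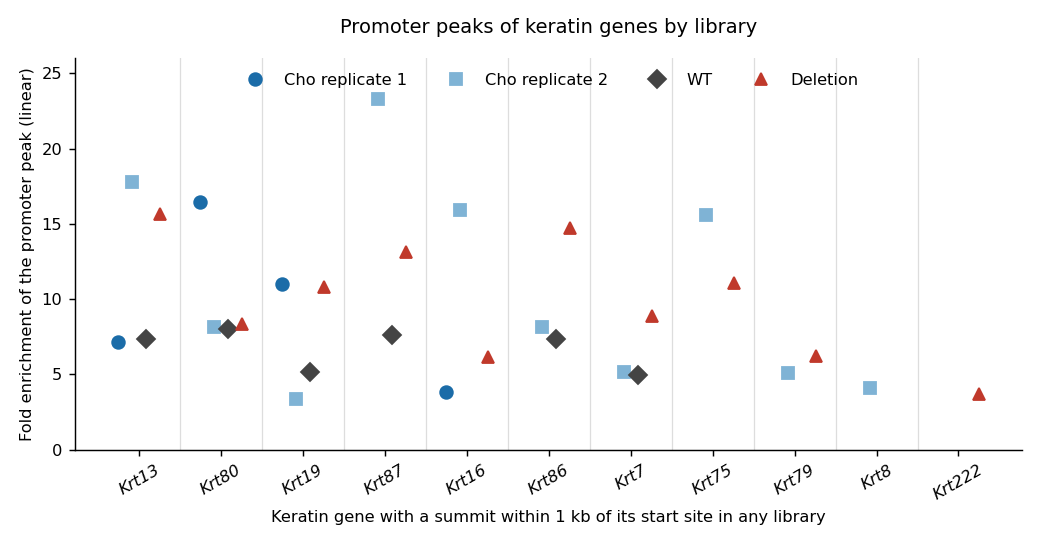
Fold enrichment (vertical axis, linear) of the strongest peak with its summit within 1 kb of the start site, for the 11 keratin genes that had one in any library. Each point is 1 library and a missing point means that no peak was called. Krt13, Krt80 and Krt19 have 4 points, and the highest point is Krt87 in Cho replicate 2 at 23.3. The Krt19 and Krt7 points of Cho replicate 2 were measured from the starts of the shorter GRCm38 records.

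Among the 6 keratins of simple epithelia, Krt80, Krt19, Krt7 and Krt8 had a promoter summit in at least 1 library, and Krt18 and Krt20 had none. Krt80, a type II keratin found in many epithelia, had a promoter peak in all 4 libraries. Its fold enrichments were 16.5, 8.16, 8.01 and 8.34, with summits 476, 377, 354 and 377 bp upstream. The Cho mean was 12.3 ± 5.87 (SD, n = 2). Cho replicate 1 had 1 constant background for all of its peaks and Cho replicate 2 did not. This SD therefore also holds the unlike backgrounds of the Cho lists and is no measure of spread between replicates alone. In pileup over library background, which does not depend on the local background, Krt80 reached 27.8, 54.2, 55.5 and 67.1, beside 31.4, 96.1, 102.6 and 91.03 at the Sox9 promoter. The peak was intergenic, upstream of Krt80. The nearest start of another gene was that of Mir1941, a microRNA gene inside the Krt80 record, 1127 bp from the WT summit. Krt80 had a further summit in every library, 1464, 1473, 1443 and 1423 bp into the gene, with fold enrichments of 10.98, 8.55, 4.34 and 6.51.

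Krt7, a keratin of ducts and glands, was counted in Cho replicate 2, WT and Deletion, at 5.18, 4.95 and 8.85, but through unlike start sites. The WT and Deletion summits lay 94 and 78 bp upstream of its start site, and that of Cho replicate 2 lay 475 bp upstream of the GRCm38 start. In Deletion and Cho replicate 2, a site lay 13703 and 13630 bp from the Krt87 start, but 14058 and 12771 bp from the Krt7 start. With the Krt7 starts set apart in this way, another Cho replicate 2 summit stood near the place of the WT and Deletion summits. It had 10.9 and lay 1451 bp upstream, past the 1 kb limit. In Cho replicate 1 no promoter summit was listed. Krt19, a keratin of ducts and of stem cells in several epithelia, was counted in all 4 libraries, but not at 1 site. Its NCBIM37 record is longer than its GRCm38 record, and the start sites differ. In Cho replicate 1, WT and Deletion the counted summits lay 896, 924 and 926 bp inside the longer record, at 10.98, 5.15 and 10.8. In Cho replicate 2 the counted summit lay 254 bp upstream of the shorter record, at 3.38, with a stronger one at 8.79 a further stretch upstream, 1866 bp from that start. A site in the Krt15 intron lay 13844 and 13855 bp from the Krt19 start in WT and Deletion, but 11114 bp in Cho replicate 2. With the starts set apart in this way, the 8.79 summit stood near the place of the 896 to 926 bp summits. It was past the 1 kb limit of the shorter record, so the count of Krt19 in all 4 libraries rests on unlike start sites. Krt8 was counted in Cho replicate 2 alone, at 4.06 and 65 bp upstream. A stronger Krt8 site lay in its intron, just past the 1 kb limit, 1313 bp into the gene in Cho replicate 2 (16.7), 1311 bp in WT (6.52) and 1252 bp in Deletion (7.19). Krt18, the partner of Krt8, had its nearest summits 1752 bp upstream in Cho replicate 2 (10.7) and 1724 bp upstream in Deletion (9.51).

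The basal and suprabasal keratins of stratified epithelia were without promoter peaks, and a few other keratins of such epithelia had them. None of the 3 basal keratins (Krt5, Krt14, Krt15) and none of the 6 suprabasal and cornified keratins (among them Krt1, Krt10 and Krt2) had a promoter summit in any of the 4 libraries. Krt15, a basal keratin also found in hair follicle stem cells and named here after its values were seen, had a summit just past the 1 kb limit, 1137 bp into the gene in Cho replicate 2 (14.4), 1128 bp in WT (5.88) and 1139 bp in Deletion (11.07). Counted from any annotated start site, Krt15 had a summit within 1 kb in WT and Deletion. Of the 4 keratins of wounded and hyperproliferative skin, Krt16 was counted, at 3.80 and 15.9 in the Cho replicates and 6.15 in Deletion, with summits 363, 391 and 288 bp upstream and none in WT. The Cho mean of Krt16 was 9.85 ± 8.55 (SD, n = 2), a spread almost as large as the mean. Its partner genes Krt6a and Krt6b, and Krt17, had none. Of the 5 keratins of mucosa and cornea, Krt13 was counted in every library, at 7.18, 17.8, 7.35 and 15.6, and its Cho mean was 12.5 ± 7.51 (SD, n = 2). As at Krt80, the SDs of Krt16 and Krt13 also hold the unlike backgrounds of the Cho lists. All 4 Krt13 summits lay 973 to 994 bp inside the gene, just within the 1 kb limit. Krt79 was counted in Cho replicate 2 (5.10) and Deletion (6.23).

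Some hair keratins of the same type are near-copies of each other, and promoter peaks were found at few hair keratins. Of 15 hair shaft keratins, Krt86 and Krt87 were counted. Krt87 is the gene that NCBIM37 names Krt83. Krt86 had fold enrichments of 8.12 in Cho replicate 2, 7.35 in WT and 14.8 in Deletion, with summits 312, 265 and 261 bp upstream, and none in Cho replicate 1. Krt87 had 23.3 in Cho replicate 2, 7.61 in WT and 13.1 in Deletion, with summits 767, 818 and 922 bp inside the gene. Of 9 keratins of the companion layer and inner root sheath, Krt75 was counted, at 15.6 in Cho replicate 2 and 11.1 in Deletion, 328 and 335 bp upstream. Of 6 further keratins, Krt222, a keratin-like gene at the end of the chromosome 11 row, was counted in Deletion alone at 3.69. The 50-base words of each promoter peak in the NCBIM37 libraries were looked up in both keratin clusters. No word of any of these peaks occurred a second time there. The look-up did not cover near matches, the rest of the genome or the peaks of Cho replicate 2. It therefore cannot settle whether similar genes shared reads.

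By type, 3, 3, 2 and 4 of the 28 type I promoters held a peak, and 1, 7, 4 and 6 of the 26 type II promoters. The calls rested on few reads in places. The solved number of reads over the summit ranged from 8 in Cho replicate 1 (Krt16) and 9 in Cho replicate 2 (Krt19) to 219 (Krt87 in Cho replicate 2), and was 6 at Krt19 and Krt7 in WT and 5 at Krt222 in Deletion.

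WT and Deletion addressed what the loss of the Sox9 elements does in chondrocytes, and at keratin promoters the Deletion list held all 6 genes of the WT list plus Krt16, Krt75, Krt79 and Krt222. The Deletion list was longer throughout. When each library was held to its 76242 strongest peaks, the counts were 6 in WT and 7 in Deletion. Of 56 WT peaks in the keratin loci, 54 (96.4%, 87.7 to 99.6%) overlapped a Deletion peak by at least 1 base, as did 95.9% of all WT peaks. In the other direction 51 of 95 Deletion peaks (53.7%, 43.2 to 64.0%) overlapped a WT peak, beside 49.4% of all Deletion peaks. The chromosome 11 keratins lie on the chromosome of Sox9, with 12.5 Mb between Krt42 and the Sox9 start site.

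Although the promoters were mostly without peaks, the loci were not. A locus was the gene with 10 kb on each side. Such a window held at least 1 summit at 29 (53.7%, 39.6 to 67.4%), 45 (83.3%, 70.7 to 92.1%), 35 (64.8%, 50.6 to 77.3%) and 49 (90.7%, 79.7 to 96.9%) of the 54 keratins. Over all genes the shares were 78.7%, 85.7%, 81.7% and 86.6%. The keratin share was below the share of all genes in Cho replicate 1 and WT, with intervals that did not reach it, and its interval held that share in Cho replicate 2 and Deletion. Keratin windows were shorter, with a median of 26.8 kb beside 37.8 kb for other genes in NCBIM37. Windows of neighboring keratins overlap, so 1 summit can be counted for more than 1 gene, as for Krt9 and Krt14. A summit can also belong to a neighbor. The strongest Krt222 summit lay 152, 267 and 276 bp from the Smarce1 start in Cho replicate 1, WT and Deletion. With this limit, a summit was present in all 4 libraries at 21 keratin loci (38.9%), Krt222 among them, beside 76.6% of other genes. Of the 54 keratins, 14 had such a locus and no promoter summit in any library (25.9%), beside 8.73% of other genes. Krt20, Krt39, Krt71 and Krt76 had no summit in any library (7.41%), beside 11.9% of other genes.

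Counted per length, with each base counted once, the keratin loci held 28.4 (95% exact Poisson interval 19.2 to 40.5), 104 (86.0 to 126), 53.0 (40.03 to 68.8) and 89.9 (72.7 to 110) summits per Mb. The windows of other genes held 43.4, 82.9, 52.4 and 93.3 per Mb. The keratin interval lay below the value of other genes in Cho replicate 1 and above it in Cho replicate 2, and included it in WT and Deletion. Without the 6 keratins whose records differ in length by over 1 kb between the builds, the value of Cho replicate 2 was 96.8 per Mb (78.2 to 118), an interval that includes the 82.9 of other genes. With −log10 q of at least 5 it was 97.9 (80.2 to 118) beside 74.1 for other genes, and among the 76242 strongest peaks 57.3 (43.9 to 73.4) beside 42.7. The value of Cho replicate 1 without them was 26.8 (17.5 to 39.2), still below the other genes. Most of the peaks in keratin loci lay away from start sites. The same share over all peaks was not computed, so these counts do not show whether keratin loci differ in this. Of 56 WT peaks in keratin loci, 13 lay within 1 kb of the start of any annotated transcript, 31 were intergenic and 13 intronic. The Deletion list had 18 of 95 near a start and 58 intergenic, and the Cho replicate 1 list 7 of 30 near a start and 19 intergenic.

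**Figure D2:**
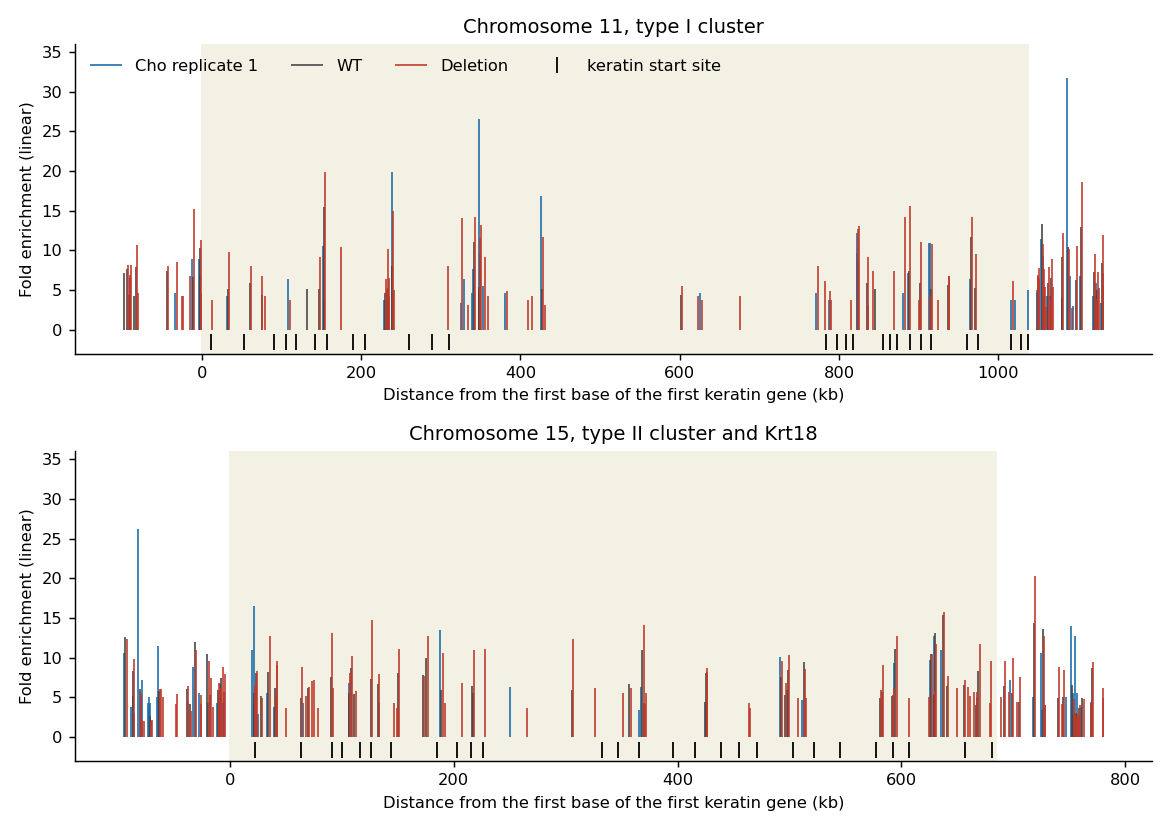
Fold enrichment (vertical axis, linear) of every peak along the keratin clusters of chromosomes 11 and 15 in the 3 NCBIM37 libraries, against the distance in kb from the first keratin gene. The shaded span runs from the first to the last keratin gene and black ticks mark the keratin start sites. The peaks seldom stand over a tick, and the upper panel has stretches without a summit of up to 222 kb in WT.

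The distal sites of the basal pair, Krt5 and Krt14, came back at the same place in each library. Krt5 had no promoter summit, yet a summit stood about 3.1 kb upstream in all 4 libraries, 3089, 3132, 3148 and 3146 bp from the start site. Its fold enrichments were 6.33, 15.8, 11.02 and 14.1. This site was intergenic, and its sequence above holds 1 TGANTCA. Cho replicate 1 had a further weak Krt5 summit at 3.38, which lay 1070 bp upstream and so just outside the promoter window. Krt14, the partner of Krt5, had its shared site 8699, 8619, 8691 and 8697 bp downstream of its start, in the intergenic stretch toward Krt9. The fold enrichments there were 6.33, 17.3, 11.6 and 14.2. Its 81 bases hold TGANTCA at 2 places. Since that site lies 5603 to 5645 bp upstream of Krt9, a keratin of palm and sole skin, it cannot be given to either gene from position alone.

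Krt1 had a summit 4547 to 4680 bp into the gene in every library, with fold enrichments of 5.91, 14.3, 8.49 and 10.3, in a coding exon in the NCBIM37 libraries. Krt10 held the strongest peak of any keratin locus in both WT and Deletion, at 15.5 and 19.8, and stood at 10.6 in Cho replicate 1. Its summits lay 3374, 3312 and 3242 bp into the gene, in a coding exon. In pileup over background these were 77.7, 79.8 and 17.5. The 81 bases at its WT summit hold 11 CG dinucleotides, beside 0 at Krt13 and Krt7 and 5 at Krt80. In Cho replicate 2 the strongest Krt10 summit, at 21.2, lay 11449 bp from the start of the GRCm38 record, which is 8085 bases longer than the NCBIM37 record. A site 4897 bp upstream of Krt28 in both WT and Cho replicate 2 lay 9564 and 17649 bp from the Krt10 start. With the starts set apart in this way, the 21.2 summit stood near the place of the coding exon summits. The start of another gene, Gm11940, lay 1350 bp from the WT summit.

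**Figure D3:**
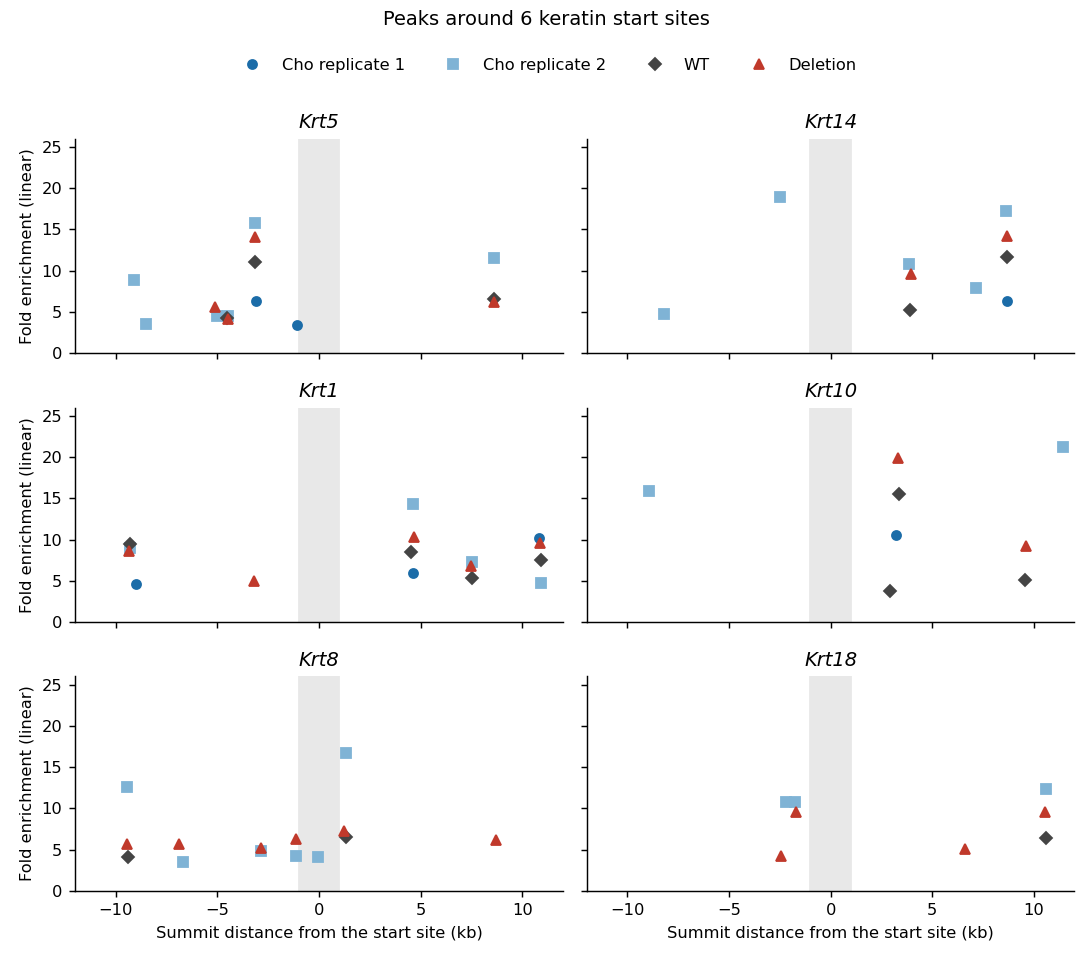
Fold enrichment (vertical axis, linear) of each peak against its summit's distance in kb from the start site for Krt5, Krt14, Krt1, Krt10, Krt8 and Krt18, with 1 symbol per library and negative distances upstream. The gray band is the 1 kb promoter window, which holds 1 point, Krt8 in Cho replicate 2. Points of different libraries stand together at 3.1 kb upstream of Krt5 and 8.7 kb downstream of Krt14. The Krt10 start of Cho replicate 2 is that of the longer GRCm38 record.

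The strongest locus peak of Cho replicate 1 was at Krt23, a type I keratin, at 19.8 and 20975 bp from its start, past the end of the gene. The same site had 15.6, 8.05 and 15.01 in the remaining 3 libraries, so it was found in every library. After Krt80, the next in Cho replicate 1 was an intergenic site between the hair keratins Krt84 and Krt82 at 13.5, which stood at 6.09, 5.88 and 10.6 in the other libraries. In Cho replicate 2 the leading loci were Krt40 (25.6, 3122 bp into the gene), Krt83 (23.9, 5904 bp upstream) and Krt78 (23.4). The Krt40 site was also called in Deletion at 7.99, in an intron. The Krt83 site was called in WT at 8.09 and in Deletion at 11.1. The Krt78 value comes from a GRCm38 record 42340 bases longer than the NCBIM37 record. Measured from the Krt8 start instead, a choice made after seeing the data, this summit lay 19927 bp downstream, and 1 summit stood 19851, 19933 and 19923 bp downstream in Cho replicate 1, WT and Deletion, at 10.98, 15.4 and 15.8. In those 3 libraries the site was intergenic and outside the keratin windows.

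The 3 genes analysed next to the ends of the rows had promoter peaks in all 4 libraries. Smarce1, a subunit of a chromatin remodeling complex, lies 1744 bp beyond Krt222 and had promoter fold enrichments of 8.87, 15.7, 10.3 and 11.3. At the other end, Eif1, a translation initiation factor 50014 bp beyond Krt42, had 31.7, 10.995, 10.4 and 10.1. On chromosome 15, Eif4b, also a translation factor, lies 41747 bp beyond Krt18 and had 10.6, 17.6, 13.6 and 12.7. The gene before Krt80, 6030408B16Rik, was not placed in both annotations and is not analysed here.

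The partners of keratins in the epithelial cell were mixed. Of 17 other intermediate filament genes, 10, 14, 13 and 15 had a promoter peak (58.8%, 82.4%, 76.5% and 88.2%). The shares of all genes, which stand beside each list here, were 58.6%, 64.8%, 62.1% and 67.8%. The filament genes include Lmna, which lines the nucleus, at 21.1, 18.8, 12.7 and 9.80, and Iffo1 at 16.9, 24.8, 14.7 and 14.8. Vim, the vimentin gene, is named outside the naming rule and had 22.4, 9.38, 8.69 and 6.47. Bfsp2, a lens filament gene, and Iffo2 had none. Desmosomes, the junctions to which keratin filaments attach, were counted at 5, 10, 7 and 9 of 16 genes (31.25%, 62.5%, 43.75% and 56.25%). Among them Jup (21.5, 19.1, 14.3 and 12.8) and Pkp4 (29.1, 24.4, 17.6 and 16.5), which are also parts of other junctions, had peaks in every library, and the skin cadherins Dsg1a and Dsg3 had none. Of 11 hemidesmosome and filament linker genes, 3, 9, 8 and 8 were counted (27.3%, 81.8%, 72.7% and 72.7%). Dst and Cd151 had peaks in all 4 libraries and Col17a1, a collagen of the hemidesmosome, in none.

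Regulators of epithelial identity had promoter peaks at 7, 13, 10 and 13 of 17 genes (41.2%, 76.5%, 58.8% and 76.5%). Of all genes, 58.6%, 64.8%, 62.1% and 67.8% had one. The list thus stood below all genes in Cho replicate 1 and WT and above them in Cho replicate 2 and Deletion. Grhl1 (40.1, 31.0, 21.7 and 22.6) and Klf5 (27.0, 23.9, 15.9 and 14.1) were counted in every library. Trp63, the master regulator of basal keratinocytes, Ehf and Foxn1, a regulator of hair and thymus, were counted in none. For every list here and in the paragraph before, Trp63 and Dst included, only the 5′ end of the gene record was used. Start sites inside a gene were not examined for these lists. Epithelial junction and surface genes stood at 1, 4, 2 and 3 of 7 (14.3%, 57.1%, 28.6% and 42.9%). Among them St14 was counted in all 4 libraries and Cldn7, Prss8 and Sfn in none. The cornified envelope genes, which make the outer crust of skin, stood at 1, 1, 1 and 2 of 12 (8.33%, 8.33%, 8.33% and 16.7%), with Lor and Ivl among the 10 that had none. Markers of other cells that a rib preparation could hold were counted in 4, 5, 5 and 6 of 6 genes for fibroblasts, 3, 2, 3 and 3 of 4 for endothelium, 0, 2, 1 and 2 of 4 for skeletal muscle and 0, 1, 0 and 0 of 4 for blood. The part of such cells in the keratin peaks was not tested.

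**Figure D4:**
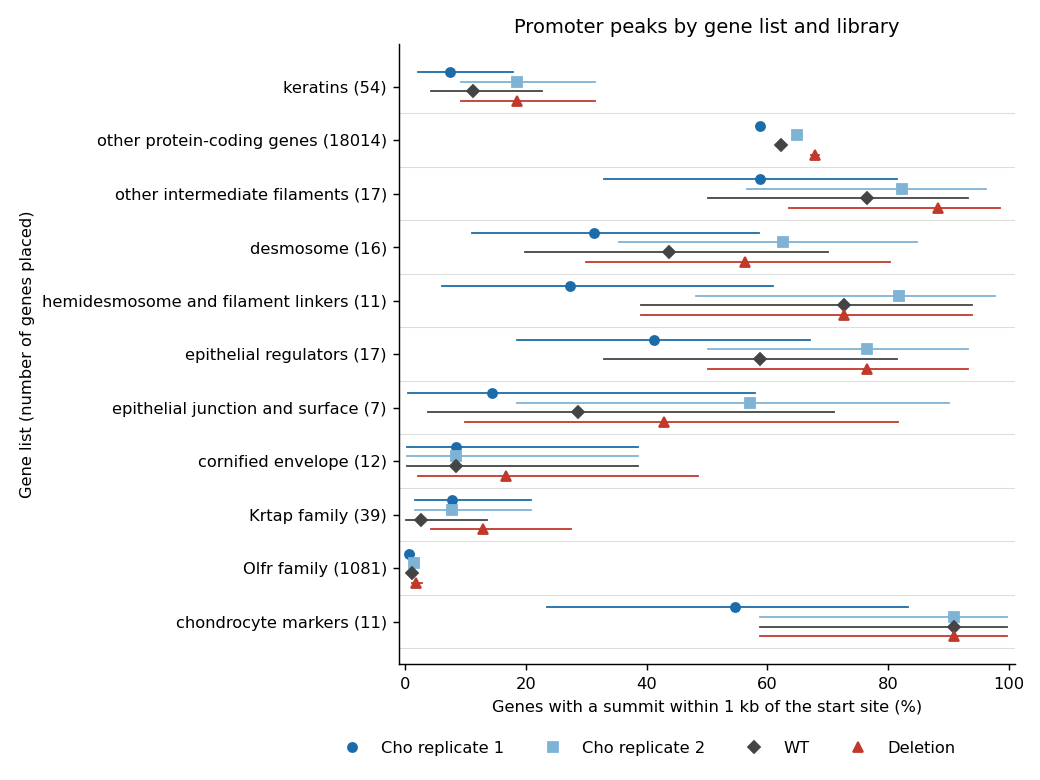
Share of genes in percent with a summit within 1 kb of the start site, for keratins, all other protein-coding genes and lists of related genes (number of genes in parentheses). Points are libraries and lines are 95% exact binomial intervals. Keratins, the cornified envelope and the Krtap genes stand near the left edge in all 4 libraries, and the other intermediate filament genes stand to their right.

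Keratin promoters also differ from most promoters in their letters, which the choice of members did not use. In the window from 250 bases before to 50 after the start site, the median ratio of observed to expected CG dinucleotides was 0.257 for the 54 keratins and 0.567 for the other genes, and median GC content was 50% and 56%. TATAAA began 21 to 40 bases before the start site in 17 keratins (31.5%) and 431 other genes (2.39%). Searched on both strands over the whole window, TATAAA was in 48.1% of keratins and 13.0% of all promoters, GGGCGG, the letters of SP1-like factors, in 11.1% and 46.1%, and TGANTCA in 9.26% and 6.92%. An occurrence of 1 of these words cannot overlap an occurrence of another. Krt18 had 17 CG dinucleotides in its window, a ratio of 0.603, and held no promoter summit in any library.

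The last 60 bases before the start site are shown for keratins of the 3 textbook pairs, with TATAAA and CG in capitals, because these promoters had no summit except Krt8 in Cho replicate 2.
Krt5, chr15:101543323-101543382, minus strand: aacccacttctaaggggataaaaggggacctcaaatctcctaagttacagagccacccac
Krt14, chr11:100068863-100068922, minus strand: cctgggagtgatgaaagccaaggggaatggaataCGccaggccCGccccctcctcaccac
Krt1, chr15:101681218-101681277, minus strand: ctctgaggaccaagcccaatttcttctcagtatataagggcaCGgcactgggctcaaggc
Krt10, chr11:99250679-99250738, minus strand: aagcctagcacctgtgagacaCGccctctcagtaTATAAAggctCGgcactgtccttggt
Krt8, chr15:101834774-101834833, minus strand: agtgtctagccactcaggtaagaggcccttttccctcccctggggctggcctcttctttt
Krt18, chr15:101858587-101858646, plus strand: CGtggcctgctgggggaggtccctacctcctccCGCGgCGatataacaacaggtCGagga
Only Krt10 of these holds TATAAA, 26 bases before its start.

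When all promoters were split into quartiles by CG ratio, 22 keratins fell in the lowest quartile, 29 in the second, 3 in the third and 0 in the highest. In the lowest quartile the shares of keratins and of other genes lay close together. There 3, 5, 3 and 5 of 22 keratins had a peak (13.6%, 22.7%, 13.6% and 22.7%), beside 9.66%, 21.3%, 12.5% and 19.2% of other genes. In the second quartile they lay far apart. That quartile spans CG ratios of 0.231 to 0.566, and keratins were not matched to other genes by ratio within it. In it 1, 4, 2 and 4 of 29 keratins had a peak (3.45%, 13.8%, 6.90% and 13.8%), beside 44.5%, 57.8%, 49.7% and 59.2% of other genes.

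**Figure D5:**
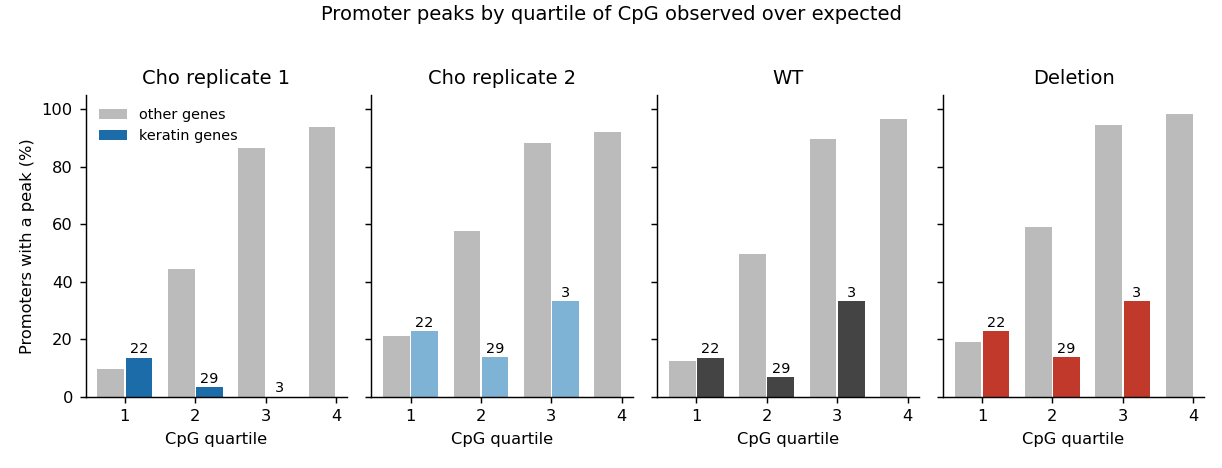
Percent of promoters with a peak (vertical axis) by quartile of the CG ratio (1 is lowest) in each library. Gray bars are other genes and colored bars are keratins, with the number of keratins in the quartile above each bar. The bars are close in quartile 1 and far apart in quartile 2, where 29 keratins lie.

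Within the peaks of keratin loci, TGANTCA was found in the 201 bases around the summit at 15 of 30 peaks of Cho replicate 1 (50%, 31.3 to 68.7%), 9 of 56 peaks of WT (16.1%, 7.62 to 28.3%) and 22 of 95 peaks of Deletion (23.2%, 15.1 to 32.9%). All other peaks of the same lists held it at 33.3%, 19.4% and 23.1%. Every one of these keratin intervals contains the value of the other peaks, so no difference was detectable with these numbers of peaks.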

How the data were processed

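ATAC-Seq peaks of 4 mouse chondrocyte libraries were analysed. Per the study methods and the submitters' processing notes, the authors cleaned reads with fastp, aligned them with Bowtie2 (2.4.4) to mm9, removed duplicates with Picard (2.20.7 in the notes, another version in the methods) and called peaks with MACS2 (2.2.4) at q = 0.05. Reads kept at repeated positions are not given in the sources used here. Each deposited list was read as called on its own library. The deposited fold enrichment compares the summit pileup with the background as a ratio. The deposited lists also hold −log10 p-values and −log10 q-values. In the deposited score column the −log10 q-value is multiplied by 10. Summit offsets were deposited in bases.

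Cho replicate 2 was read as GRCm38, since 64.8% of promoters held a peak with GRCm38 positions and 17.2% with NCBIM37 positions, although the notes and methods name mm9. No coordinates were converted. Genes were matched by symbol, or by RefSeq synonym for 5 keratin loci, between GENCODE (NCBIM37) and RefSeq (GRCm38.p6). Of the 54 keratins, 50 are protein-coding and named Krt in both. Genes whose strand differed were left out. The start site was the 5′ end of the gene record. Where an interval was listed more than once, the highest fold enrichment was kept. Read totals are unknown from peak lists. With the Poisson model of MACS2, the p-value and fold enrichment gave back the summit pileup of 98.3 to 100% of peaks, and library backgrounds were 1.37, 1.96, 0.361 and 0.626 in Cho replicate 1, Cho replicate 2, WT and Deletion. Steps were tested on simulated data.

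No test was run: intervals are exact binomial or Poisson intervals at 95% and cover counting error only. Members and lists were chosen with earlier results of these data known. Named genes were keratins with a promoter summit in any library, the 3 textbook pairs and Krt19, the 3 strongest keratin loci of each library, the genes at the cluster ends, examples of each list with and without a summit in all 4 libraries, Sox9 and Col2a1. Col2a1 had promoter fold enrichments of 4.65, 5.71, 5.56 and 5.04. Sequences came from the NCBIM37 genome. Eppk1, Flg, Snorc and others of the lists that were not placed in both annotations are not analysed here. Scripts ran under Python 3.11.15 with scipy 1.17.1, pandas 2.3.3, numpy 2.4.6 and matplotlib 3.10.9.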

Additional observations from a re-analysis of the deposited data

How the results depend on the processing

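Under the alternatives tried for both gene sets (summit windows of 500 bp or 2 kb, −log10 q of at least 2 or 5, the 76242 strongest peaks of each list, any annotated start site, any base of the interval, every listed summit), keratin shares ran from 3.70% to 29.6% and stayed below the share of other genes in the same library, which ran from 52.8% to 71.9%. Within 500 bp, 2 keratin promoters were counted in Cho replicate 1 and 3 in WT. Within 2 kb, 7 were counted in Cho replicate 1, 10 in WT and 16 in Deletion. With equal numbers of strongest peaks, Cho replicate 2 held 6. The mean over Cho was 7 and, leaving out 1 replicate, ran from 4 to 10. In the gene body alone, 7, 21, 15 and 21 keratins held a summit (13.0%, 38.9%, 27.8% and 38.9%), beside 56.6%, 69.8%, 61.7% and 71.8% of other genes. With −log10 q of at least 5, density in keratin loci was 18 per Mb in Cho replicate 1, 36 in WT and 68.1 in Deletion. Other genes then stood at 30.4, 39.5 and 66.5. With equal numbers of strongest peaks, keratin density was 57.3 in Cho replicate 2 and 46.4 in Deletion, beside 42.7 and 42.6 for other genes. The ratio of median fold enrichment at keratin to other promoters became 0.31 in WT and 0.427 in Deletion when summit pileup over library background was used. The other 108 values moved by no more than 1.5 times for counts, and stayed within the interval or SD of the value for densities and ratios. Leaving out the 6 keratins whose records differ by over 1 kb between builds, or the 4 named in 1 annotation, was chosen after seeing the data and moved no count by more than 1.5 times. No paired analysis was possible because the replicate numbers of Cho match no other group, and the genotypes had 1 library each. Read totals are unknown, so no limit set by depth was computed.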

Other observations

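The keratin-associated protein genes (Krtap), which make the matrix around hair keratins, had promoter peaks at 3, 3, 1 and 5 of 39 genes in Cho replicate 1, Cho replicate 2, WT and Deletion, and 33 of the 39 had none in any library. Of the 39, 22 lie among the type I keratins on chromosome 11 and 17 elsewhere. The longest stretch without a summit inside the chromosome 11 cluster was 200 kb in Cho replicate 1, 222 kb in WT and 172 kb in Deletion, and these stretches held 5, 7 and 4 of the 22. For olfactory receptor genes, another clustered family, 7, 15, 12 and 19 of 1081 had a promoter peak (0.648%, 1.39%, 1.11% and 1.76%). The Krtap shares were 7.69%, 7.69%, 2.56% and 12.8%, and those of all genes 58.6%, 64.8%, 62.1% and 67.8%.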
